A study of Mus musculus with 12 samples.

Results

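The 9 genes described here encode transcription regulators that label the neurons of particular layers of the neocortex: Cux1, Cux2, Rorb, Fezf2, Bcl11b, Etv1, Tbr1, Foxp2 and Tle4. They were found by matching the accession of each array probe to these symbols, which gave 17 of the 39429 probes of the array and 9 of the 20868 genes tested. RNA was measured on 12 one-colour Agilent mouse arrays, each made from RNA of 3 animals pooled in equal amounts. A level in this text is the log2 of the processed signal after quantile normalization over the 12 arrays, averaged over the probes of a gene, so a difference of 1 is a 2-fold difference in signal. Levels of different genes come from different probes and were not set against each other.

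Prefrontal cortex was measured on 4 arrays, from C57BL/6 mice aged 1.5, 4, 17 and 22 months that carried no transgene and were given no agent. Hippocampus was measured on 8 arrays. On 3 of these the mice were transgenic C57BL/6 animals: an NCSTN model that overexpresses mutated human nicastrin (10 months old), a MAPT model that overexpresses human wild-type tau (12 months old) and 5xFAD, an amyloid transgenic line (6 months old). The promoters that drive the NCSTN and MAPT transgenes were not given in the sources used here. The other 5 hippocampus arrays came from ICR mice aged 7 weeks at purchase, given Aβ at 5 µM or 10 µM or streptozotocin at 2.5 mg/kg or 3 mg/kg into the lateral ventricle 14 days before the tissue was taken, or scopolamine at 1 mg/kg into the peritoneum 30 minutes before. No hippocampus array from an untreated mouse and no cortex array from a model was analysed here, so region cannot be told apart from transgene or treatment. Each array is a different age, line or dose, and p-values therefore measure the spread between such arrays.

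The neocortex is built of layers whose projection neurons differ in their targets and in the transcription factors they use. Cux1 and Cux2 are homeobox proteins of upper-layer neurons, where they act in dendrite branching and synapse formation, and the nuclear receptor Rorb marks layer 4. Fezf2 specifies subcerebral projection neurons of layer 5, Bcl11b (also called Ctip2) acts downstream of it in corticospinal neurons, and the ETS factor Etv1 marks another part of layer 5. Tbr1 is a T-box factor needed for corticothalamic neurons of layer 6, Foxp2 is a forkhead factor of the same layer, and Tle4 is a Groucho corepressor found there. The hippocampus is an older, 3-layered cortex that shares some of these genes. Bcl11b is well known in its CA1 pyramidal and dentate granule neurons.

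RefSeq promoter sequences of GRCm38.p6 were at hand for 8 of the 9 genes, as 12 promoters, and the 250 bases before each start were searched on both strands for motifs of factor families to which members belong. The motif CUX (ATCGAT, its own reverse complement) was in 0.728% of 32851 promoters, and FOX (TGTTTAC, or GTAAACA) in 3.17%. Each was in 1 of the 12 member promoters, in Cux2 and in Cux1, and the stretches around these matches are shown because they are the sole matches among the members, with the motif in capitals. Both genes lie on the minus strand, and the sequences run 5′ to 3′ on that strand, at chr5:136566073-136566199 for Cux1 and chr5:122047832-122047957 for Cux2.
Cux1: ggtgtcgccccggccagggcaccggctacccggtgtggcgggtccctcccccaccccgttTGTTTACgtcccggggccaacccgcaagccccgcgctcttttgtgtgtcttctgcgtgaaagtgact
Cux2: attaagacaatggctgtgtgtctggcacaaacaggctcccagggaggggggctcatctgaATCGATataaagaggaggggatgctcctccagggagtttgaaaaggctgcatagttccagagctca
The FOX letters lie 158 to 152 bases before the start of the Cux1 promoter searched. The CUX letters lie 72 to 67 bases before the start of 1 of the Cux2 promoters searched, and the other had no match. The motifs ROR (AGGTCA), T-box (AGGTGT) and ETS (CCGGAA) were in 14.0%, 11.8% and 12.0% of all promoters and in 0 of the 12 member promoters. A match is a run of letters and was not tested as a binding site.

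The labelled regions were checked first. Of 14 hippocampal marker genes, which include the granule cell factor Prox1 and the pyramidal cell gene Fibcd1, 9 were lower in cortex and 0 higher. The mean level of that list lay between 6.72 and 6.94 on the cortex arrays and between 8.64 and 9.13 on the hippocampus arrays. Its member Dsp was well above background on 8 of 8 hippocampus and 0 of 4 cortex arrays, and Iyd on none of either. The mean of 8 general neuron genes spanned 14.29 to 14.39 in cortex and 14.03 to 14.30 in hippocampus. One fact goes against the stated sex of the animals, which is male for all models. Xist, the RNA of the inactive X chromosome, was at 9.19 to 9.59 on the 3 transgenic arrays and not well above background on the other 9, and the Y-linked Ddx3y showed the reverse, so the region comparison of the members was also made with either hippocampus group left out.

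Of the 9 members, 7 differed between cortex and hippocampus by limma over all genes (adjusted p under 0.05). Cux1, Cux2, Rorb and Tbr1 were higher in cortex, by 1.87-fold to 2.78-fold, and Bcl11b and Etv1 were lower. Foxp2 was also higher in cortex, with its hippocampus probes mostly not well above background. Fezf2 and Tle4 did not pass. Over all 20868 genes the same test called 24.6%, with 13.0% higher and 11.6% lower in cortex. For all 7 called members the 4 cortex arrays did not overlap the 8 hippocampus arrays, which held for 16.4% of all genes (8.66% with cortex above and 7.75% with cortex below). The members' median absolute difference was 1.25 log2 units against 0.28 over all genes. Bulk tissue does not separate fewer cells of a type from less RNA per cell.

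**Figure D1:**
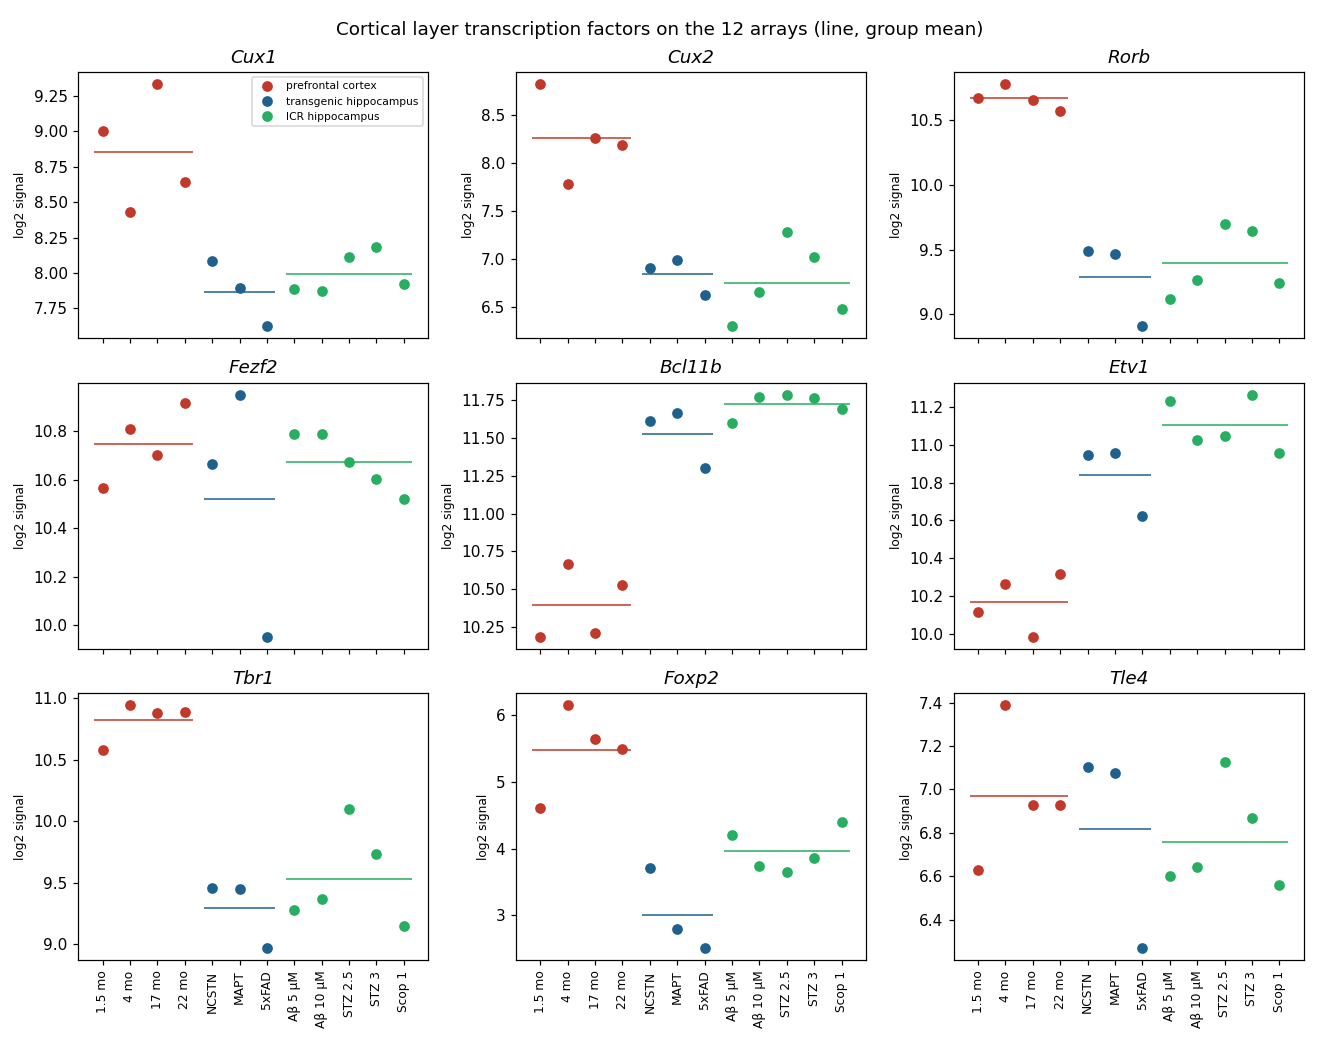
Level of each member (log2 normalized signal, a separate axis range for each gene that does not start at 0) on 4 prefrontal cortex arrays (red), 3 transgenic hippocampus arrays (blue) and 5 ICR hippocampus arrays (green, doses as in the text). Points are single arrays and lines are group means, and cortex lies apart from both hippocampus groups for 7 genes but not for Fezf2 and Tle4.

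Among the upper-layer factors, Cux1 had levels of 9.0, 8.43, 9.34 and 8.64 at 1.5, 4, 17 and 22 months in cortex, against a lowest of 7.62, a median of 7.91 and a highest of 8.18 in hippocampus. The 4-month array was the lowest in cortex and still lay 0.25 above the highest hippocampus array. The difference was 0.91 ± 0.16 (SE, 4 against 8 arrays), or 1.87-fold, with an adjusted p of 0.00175 by limma. Its 3 probes gave 0.57, 0.99 and 1.16, all called, and the brightest probe gave the smallest. Transcripts of the Cux1 locus also encode CASP, a Golgi protein, so the probes need not read 1 product.

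Cux2 stood at 8.82, 7.78, 8.25 and 8.19 in cortex at the same ages, and between 6.30 and 7.28 in hippocampus with a median of 6.78. The youngest array was highest and the 4-month array lowest, and the gap to the hippocampus arrays was 0.50. The difference was 1.48 ± 0.21, or 2.78-fold (limma adjusted p = 0.000441).

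Rorb was the most even of the members across cortex, at 10.67, 10.78, 10.66 and 10.57. In hippocampus it ran from 8.91 through a median of 9.37 to 9.70, so the regions were separated by 0.87, the widest gap among the members higher in cortex. The difference of 1.32 ± 0.14 (2.49-fold) had a limma adjusted p of 5.82e-05.

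Among the layer 5 factors, Fezf2 was at 10.57, 10.81, 10.70 and 10.91 in cortex and at 9.95 to 10.95 in hippocampus, median 10.67. The regions overlapped throughout, since 7 of the 8 hippocampus arrays lay above 10.5, and the difference was 0.13 ± 0.16 (limma adjusted p = 0.579).

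Bcl11b ran the other way. It was at 10.18, 10.67, 10.21 and 10.53 in cortex, and its lowest, median and highest hippocampus levels were 11.30, 11.68 and 11.79. Every hippocampus array lay at least 0.63 above every cortex array. The difference of -1.25 ± 0.12, a signal 2.38-fold higher in hippocampus, had the smallest adjusted p of the 9 members (2.31e-05, limma).

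Etv1 was also lower in cortex, at 10.11, 10.27, 9.98 and 10.32 against 10.62, 10.99 and 11.27 for the lowest, median and highest hippocampus arrays. The difference was -0.84 ± 0.12, or 1.79-fold higher in hippocampus (limma adjusted p = 0.000396), and both of its probes gave this direction.

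Of the layer 6 factors, Tbr1 was at 10.58, 10.94, 10.88 and 10.89 in cortex. The hippocampus arrays spread from 8.97 over a median of 9.41 to 10.10, the highest being streptozotocin at 2.5 mg/kg, and the cortex arrays lay at least 0.48 above them. The difference was 1.38 ± 0.18, or 2.61-fold (limma adjusted p = 0.000259).

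Foxp2 had the largest SD of the members over the cortex arrays, 0.642, although with normexp background correction it had 0.238 and Cux2 0.353. It was at 4.61, 6.15, 5.64 and 5.50 in cortex, and at 2.51, 3.72 and 4.40 on the lowest, median and highest hippocampus arrays. Its 2 probes were well above background on 4 of 4 cortex arrays but on 1 and 3 of the 8 hippocampus arrays, so most hippocampus levels lie near the detection limit and no fold is read from them. The fitted difference was 1.87 ± 0.37 (limma adjusted p = 0.00389), the largest of the called members, but its size depends on the background correction. It was 0.52 (1.44-fold, adjusted p = 0.0020), the smallest of the 7, after normexp background correction, and 0.97 with an adjusted p of 0.246 in the deposited matrix, where it was below Rorb, Cux2, Tbr1 and Bcl11b in size and no longer called. Over all alternatives its limma adjusted p ran from 0.000775 to 0.246.

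Tle4 was at 6.63, 7.39, 6.93 and 6.93 in cortex and at 6.27 to 7.13 in hippocampus, median 6.75. The cortex array at 1.5 months lay below the hippocampal median, and the difference of 0.19 ± 0.18 did not pass (limma adjusted p = 0.495).

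The same 7 members were called, in the same directions, when the hippocampus side held the 3 transgenic arrays or the 5 ICR arrays alone. In the first of these both sides carry the strain label C57BL/6, although the methods give C57BL/6N as the background of the NCSTN and 5xFAD lines, and in the second both sides have the same sex-linked pattern. All genes were called at 10.7% and 38.4% in these fits. Against the transgenic arrays Foxp2 differed by 2.47 ± 0.43, against the ICR arrays by 1.50 ± 0.30, and Cux1 came closest to the threshold, with a limma adjusted p of 0.0469 against the transgenic arrays, the highest of 0.000381 to 0.0469 over its alternatives.

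**Figure D2:**
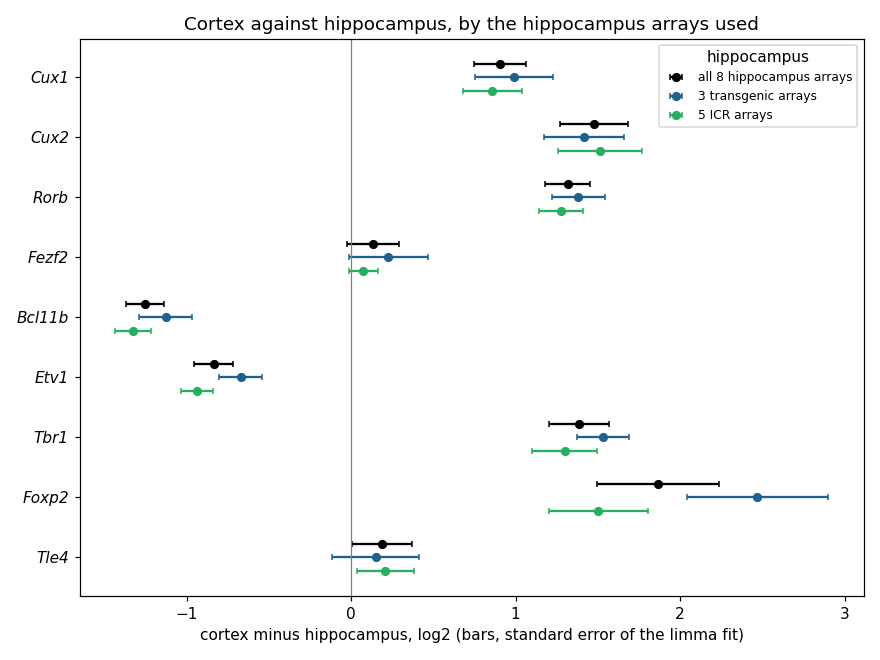
Cortex minus hippocampus difference in log2 signal for each member, with the standard error of the limma fit as bars, using all 8 hippocampus arrays (black), the 3 transgenic arrays (blue) or the 5 ICR arrays (green). Cux1, Cux2, Rorb, Tbr1 and Foxp2 lie to the right of 0 and Bcl11b and Etv1 to the left in all 3 fits, and Fezf2 and Tle4 lie within 0.23 of 0.

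Genes that mark the same layers, but are not members, were read in the same fit. Of 28 other layer transcription factors, 10 were higher and 12 lower in cortex, with a median difference of -0.26. Mef2c, an activity-dependent factor, was 5.84-fold higher in cortex. Nr2f2, which patterns caudal and ventral telencephalon, was 5.15-fold higher in hippocampus, and Nr4a2, a nuclear receptor of subplate-derived neurons, 3.38-fold. The median over all genes was 0.00.

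Of 9 layer 2/3 markers, 5 were higher and 1 lower in cortex, with a median of 0.99. Lamp5 was 8.92-fold and Stard8 5.40-fold higher in cortex, and Mdga1, an adhesion protein, 3.66-fold higher in hippocampus. Of 4 layer 4 markers, 2 were higher (the channel gene Kcnh5, 4.12-fold, and Rspo1, 3.57-fold) and Scnn1a was lower, with 3.19-fold more signal in hippocampus.

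The 10 layer 5 markers had a median of 0.04, with 2 higher and 3 lower in cortex. Deptor, an mTOR-binding protein, was 2.56-fold and Pcp4 2.39-fold higher in cortex, and Crym was 2.55-fold and Lratd2 2.27-fold higher in hippocampus. Lratd2 was well above background on 2 of 4 cortex arrays. Of 11 layer 6 markers, 3 were higher and 0 lower, with a median of 0.44. These included Cplx3, a complexin of subplate cells, 2.35-fold higher, and Col24a1, for which no fold is read because it was well above background on 1 of 8 hippocampus arrays.

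The 4 cortex arrays were then compared with each other, as a reading of how alike the dissections were. There was 1 array per age, so age was not tested. The SD over the 4 arrays was 0.0841 for Rorb, 0.149 for Fezf2, 0.152 for Etv1 and 0.165 for Tbr1, all under the median of 0.173 over all genes. It was 0.237 for Bcl11b, 0.312 for Tle4, 0.398 for Cux1, 0.428 for Cux2 and 0.642 for Foxp2. In fold terms, Rorb spanned 1.15-fold and Foxp2 2.91-fold between its lowest and highest cortex array. These SDs rest on 4 arrays and on probe means. Both Etv1 probes spanned more over cortex than their mean, 6.79 to 7.27 and 12.93 to 13.44 against 9.98 to 10.32. So did the dimmer Tbr1 probe, 7.46 to 8.16 against 10.58 to 10.94, but not clearly the brighter, 13.60 to 13.96. The SDs of Etv1 and Tbr1 are therefore not read as a sign that the dissections were alike. Without the 1.5-month array the SD was 0.034 for Tbr1, 0.257 for Cux2 and 0.341 for Foxp2, and without the 4-month array it was 0.052 for Rorb and 0.172 for Tle4. The span of Cux1, 1.87-fold, was as large as its difference between regions.

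The members did not rank the ages alike. At 1.5 months Cux2 was at its highest, and Fezf2, Bcl11b, Tbr1, Foxp2 and Tle4 were at their lowest. At 4 months Rorb, Bcl11b, Tbr1, Foxp2 and Tle4 were at their highest, and Cux1 and Cux2 at their lowest. Cux1 was highest and Etv1 lowest at 17 months, and Fezf2 and Etv1 were highest and Rorb lowest at 22 months. These ranks are of probe means, and single probes did not all share them. The brighter Rorb probe was highest at 17 months (11.70 against 11.64 at 4 months). So were the dimmer probes of Tbr1 (8.16 against 7.92) and Foxp2 (5.64 against 5.47). The brighter Tbr1 probe was lowest at 17 months, as was the dimmer Bcl11b probe. Of Etv1, the dimmer probe was lowest (6.79) and the brighter highest (13.44) at 1.5 months. By probe means, the upper-layer pair Cux1 and Cux2 and the deep-layer pair Foxp2 and Tle4 had opposite extremes at 4 months. Of the Foxp2 probes, the brighter alone was highest there.

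**Figure D3:**
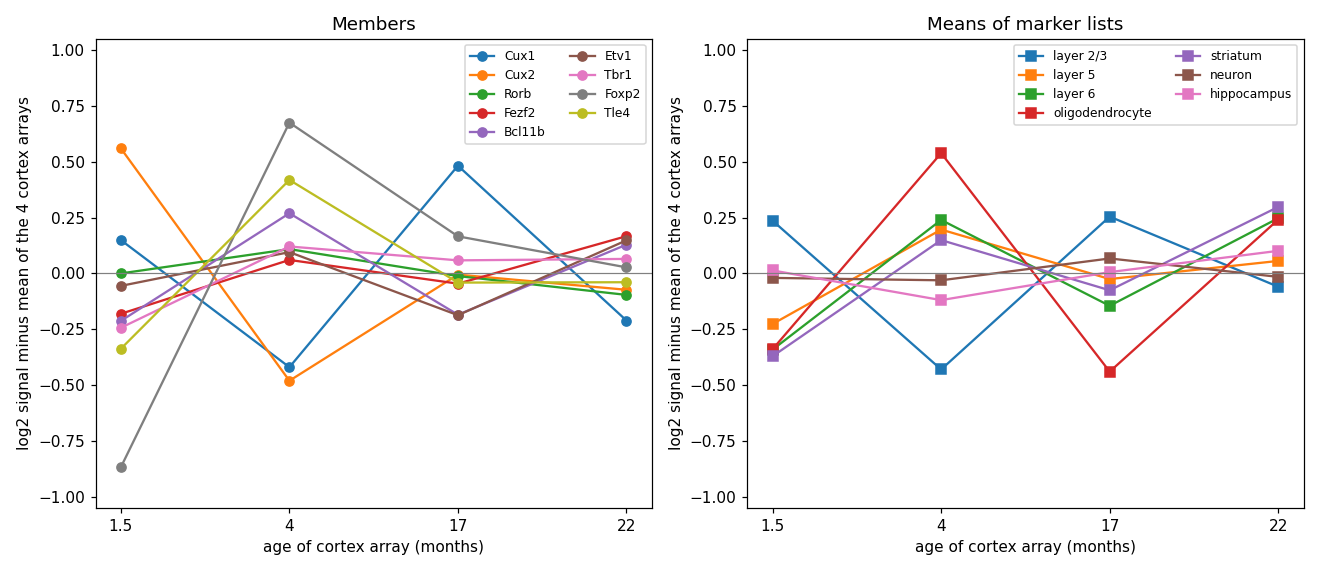
Deviation of each member (left) and of the mean of 7 marker lists (right) from its own mean over the 4 cortex arrays, in log2 signal, at 1.5, 4, 17 and 22 months (ages evenly spaced on the axis, 1 array each). Cux1 and Cux2 are lowest at 4 months, as is the layer 2/3 list, and the probe means of Foxp2 and Tle4 are highest there. The layer 6 and oligodendrocyte lists are higher at 4 and 22 months than at the other ages.

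Marker lists moved over the same 4 arrays. The layer 2/3 mean was 9.27, 8.60, 9.29 and 8.98 at 1.5, 4, 17 and 22 months, and the layer 6 mean was 8.49, 9.07, 8.69 and 9.08. The mean of 10 oligodendrocyte genes was 10.83, 11.70, 10.72 and 11.41. The layer 2/3 mean was thus lowest, and myelin genes such as Mobp and Opalin highest, on the same 4-month array. The mean of the 4 layer 4 genes was 9.03, 9.28, 8.39 and 8.89, highest at 4 months. The probe mean of Rorb was also highest there, but its brighter probe was highest at 17 months. Within that list Rspo1 was highest at 1.5 months and the other genes at 4 months. Rorb spanned only 1.15-fold over the cortex arrays. With 1 array per age, whether the upper layers moved together was not tested.

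The mean of 12 striatal genes was 8.31, 8.83, 8.60 and 8.98, and Drd2, the D2 dopamine receptor, ran 3.16, 6.94, 4.23 and 5.83. In the region comparison 5 striatal genes were higher and 1 lower in cortex, with a median of 0.70. The 17-month array stood apart for choroid plexus, the secretory tissue of the ventricles, with a list mean of 8.56 where the other cortex arrays had 4.54 to 5.28, and with Ttr at 15.57 against 5.11 to 6.85. Of the 10 choroid plexus genes, 6 were lower in cortex. The part of these other tissues in the member levels was not tested. Without the 17-month array all 7 members were still called.

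The 7 thalamic genes had 1 higher and 3 lower in cortex (median -0.43), the 10 oligodendrocyte genes 0 higher and 3 lower (median -0.50), and the 8 neuron genes 4 higher and 0 lower (median 0.28). Thalamic means over the cortex arrays ran from 6.67 to 7.05.

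Within hippocampus, none of the 9 members was called between the 5 ICR and the 3 transgenic arrays by limma with 3 groups, where 11.1% of all genes were. Etv1 and Foxp2 came closest, with an unadjusted p under 0.05 in that fit. The share of all genes under that unadjusted threshold was not counted, so no result is read from it. Foxp2 had means of 3.97 and 3.00, a difference of 0.97 ± 0.35 (limma adjusted p = 0.102). It was called in the deposited matrix (2.39, limma adjusted p = 6.26e-05), in which these groups were processed differently, and over all alternatives its adjusted p ran from 6.26e-05 to 0.326. Etv1 had means of 11.11 and 10.84, a difference of 0.26 ± 0.12 (limma adjusted p = 0.163). Its dimmer probe gave 0.53 and its brighter probe 0.0021, so the difference came from the dimmer probe. Strain, age, transgene, treatment and sex-linked pattern all go with these groups and cannot be told apart.

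The 5xFAD array had the lowest level of the 8 hippocampus arrays for 8 of the 9 members, all but Cux2, and the highest for none. Over all genes it was lowest for 28.9% and highest for 18.4%. Fezf2 was at 9.95 on it and at 10.52 or above on the other 7, and Bcl11b at 11.30 and at 11.60 or above. This count rested on dimmer probes. By single probe, 9 of 17 were lowest on 5xFAD, against 27.9% of all probes, and when the brightest probe alone stood for a gene this fell to 2 members, Fezf2 and Bcl11b, where the same held for 26.7% of all genes. The array also had the most probes well above background, 75.8%, and its neuron list mean of 14.10 lay within the range of the other hippocampus arrays. With it left out, the same 7 members were called between regions.

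Both streptozotocin arrays lay above the other 3 ICR arrays for Cux1, Cux2, Rorb, Tbr1 and Tle4, and below them for none. Over all genes 20.7% lay above and 14.4% below. With the brightest probe alone Cux1 no longer lay above, and 20.3% of all genes did. In the deposited matrix, where groups of arrays were processed separately, 7 members lay above, as did 48.6% of all genes. Tbr1 was at 10.10 and 9.73 on the 2.5 and 3 mg/kg arrays and at 9.15 to 9.37 on the other 3. Cux2 was at 7.28 and 7.02, against 6.30 to 6.66. The choroid plexus list was also different there, with means of 6.64 and 7.09 against 11.70 to 11.91, and its part in the member levels was not tested. The doses were 1 array each, and no test was made between treatments.

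**Figure D4:**
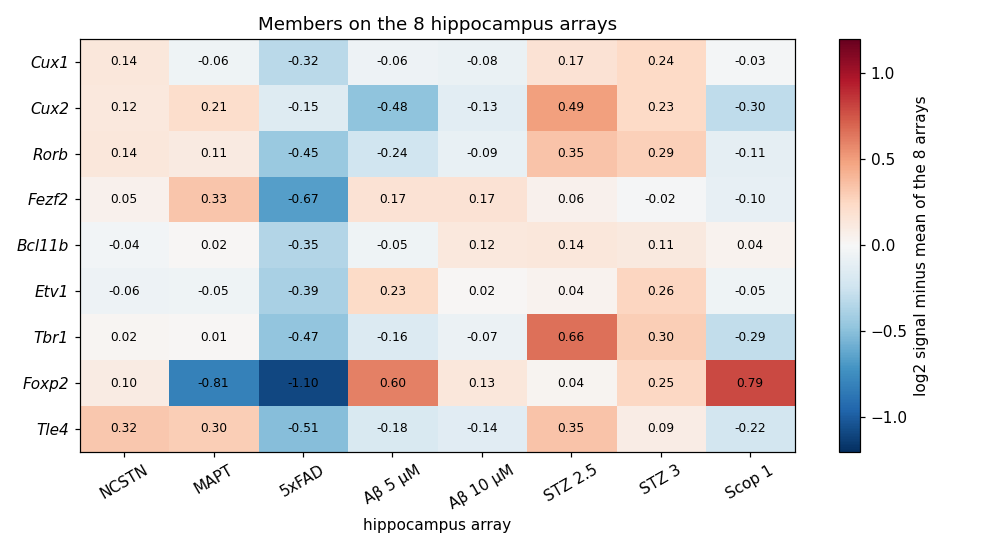
Level of each member on each hippocampus array minus its mean over the 8 arrays, in log2 signal (blue lower, red higher, value printed in each cell; STZ is streptozotocin and Scop scopolamine, in mg/kg). The 5xFAD column is negative for each member, and both STZ columns are positive for each member but Fezf2. The share of all genes with these signs was not counted, and most Foxp2 levels shown lie near the detection limit.

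The genes whose levels followed Foxp2 most closely over the 12 arrays were Zfp51 (Pearson's r of 0.972), Uxt (0.963), Nfkbib (0.962), Lrrc14 (0.956) and Atl2 (0.938). Most of the hippocampus levels of Foxp2 that enter this order are near background, with its probes well above it on 1 and 3 of 8 arrays. The 12 points share 2 regions, and no p is given. All 5 were higher in cortex, by 0.25 to 0.47 log2 units, a smaller difference than that of Foxp2. They were picked for following Foxp2, so this direction is not a separate result.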

How the data were processed

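RNA from prefrontal cortex of mice of 4 ages and from hippocampus of 8 mouse models was hybridised to 12 one-colour Agilent arrays. The authors pooled RNA of 3 animals per array and deposited the scanner software's intensity values per spot, not normalized between arrays, and a matrix of processed intensity values in which groups of arrays had been processed separately. The matrix was used as an alternative only. From the deposited intensities, control spots and 110 to 234 outlier spots per array were left out, log2 of the processed signal was taken, and spots of 1 probe were averaged. Probes 1.4-fold over local background on at least 4 arrays, the authors' ratio, were kept. All 39429 probes passed, so this filter removed none. Values were quantile normalized. Accessions without versions were matched to GRCm38.p6, which named 69.8% of probes, and the probes of a gene were averaged. This gave 20868 genes, 5512 of them with 2 or more probes, after 18 genes with a missing value were left out.

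Region was tested with limma 3.58.1 (R 4.3.3; lmFit, eBayes) and Benjamini-Hochberg adjustment over all genes, 4 cortex against 8 hippocampus arrays, and the hippocampus groups in a 3-group fit. The scripts were tested on simulated data. The number of arrays limits the precision. The well-above-background flag is that of the scanner software. The members and lists were chosen with earlier results of these data known. Named genes were the members, the 2 largest called differences per direction of each layer list, up to 3 genes of each region list with the largest range over cortex, and the 5 genes closest to Foxp2 in pattern. A gene that this rule covers is not reported here. Prox1, Iyd and Dsp were named as list members. Alternatives were scaling to the 75th percentile, normexp with an offset of 50 (on the median signal, since the files used here hold no mean signal), the matrix, other filters, the brightest probe, a trend in the prior, other sets of hippocampus arrays and leaving out each array. Single probes and the order of arrays were added after seeing the data. Python 3.11.15 with pandas 2.3.3 and matplotlib 3.10.9 made tables and figures.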

Additional observations from a re-analysis of the deposited data

Results flagged for a closer look

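Tbr1 on the cortex array at 1.5 months was at 10.58, apart from the other 3 cortex arrays at 10.88 to 10.94. This rested on the dimmer Tbr1 probe, at 7.46 on that array against 7.92 to 8.16. On the brighter probe that array was at 13.70, within the 13.60 to 13.96 of the others. Without that array the SD of Tbr1 over cortex was 0.034 in place of 0.165. Over the remaining arrays its probes ranked the ages in opposite order, which makes the SD of their mean small. The mean of the neuron list was highest on the 17-month cortex array, at 14.39 where the others had 14.29 to 14.31. Of 40 groups of values checked for a sample far from the rest, these 2 were marked, and chance marks about 1 in 20.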

How the results depend on the processing

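Across 23 other settings, the 7 called members kept direction and call in 160 of 161 values, and in 13 of 13 fits of single probes, the exception being Foxp2 in the deposited matrix (0.97, adjusted p = 0.246), whose hippocampus groups were processed differently. Normexp moved Foxp2 to 0.52, Cux1 to 0.60 and Cux2 to 0.99, and the brightest probe moved Cux1 to 0.57. The count of genes called was 5138, 2238 with the transgenic arrays alone and 8008 with the ICR arrays alone, and 3619 to 5740 with 1 array left out, while 7 members were called each time. Leaving out 1 cortex array moved an SD over cortex by more than 1.5 times for Tbr1 (0.034), Foxp2 (0.341) and Cux2 (0.257) without 1.5 months, and for Rorb (0.052) and Tle4 (0.172) without 4 months.

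Between ICR and transgenic arrays, 0 members were called, and 1 (Foxp2) in the matrix. The sign of the difference turned in the matrix for Rorb (-0.21), Fezf2 (-0.094) and Bcl11b (-0.22), and with the brightest probe for Cux1 (-0.0097), Rorb (-0.13) and Tbr1 (-0.0081). With 1 array left out it ranged from -0.33 to 0.086 for Tle4, -0.084 to 0.21 for Rorb, -0.13 to 0.37 for Fezf2 and -0.23 to 0.014 for Cux2. None of these was called, and the cause was not tested. Genes called there numbered 2313, 5167 when arrays were scaled to their 75th percentile, 7979 from the matrix and 1064 (without MAPT) to 3052 (without 5xFAD) with 1 array left out. Members lowest on 5xFAD fell from 8 to 2 with the brightest probe.

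No filter gave the main values, since the filter removed no probe. No block for slide or scan was run, because the files used here carry neither. No paired analysis was possible because the cortex and hippocampus arrays came from different mice. Levels of Foxp2 in hippocampus are limited by signal over background.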
